A study of Mus musculus with 6 samples.

Results

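The DnaJ or Hsp40 proteins are cochaperones defined by a J domain. Through this domain they bind an Hsp70 chaperone and stimulate its ATPase, so that it grips a client protein, and the Hsp70 they work with is set largely by where in the cell they sit. Class A members keep the whole domain plan of bacterial DnaJ, class B members lack its zinc-binding repeats, and class C members share little beyond the J domain and include many specialised proteins. In most cells a few cytosolic members are strongly induced by heat together with Hsp70, whereas most of the family is not heat inducible.

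The family was taken as every gene whose single symbol in the platform annotation is Dnaja, Dnajb or Dnajc followed by a number, without Dnajb9 and Dnajc3, which belong to the unfolded protein response of the endoplasmic reticulum. This gave 42 genes of 18193 with 1 symbol on the array, 4 of class A, 12 of class B and 26 of class C. Each gene was read from its brightest probe set, a group of short probes against 1 transcript, by the mean over the 6 arrays. Genes whose mean reached 6 on the log2 scale in either group are called expressed here, 32 of the 42, and the other 10 are called dim. Dnajc19 could not be included, since its 3 probe sets carry a second symbol.

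The RNA came from commercially supplied mouse mesenchymal stem cells, which can turn into fat, bone or cartilage, and was hybridised to Affymetrix expression arrays. Irradiated cultures received broadband terahertz pulses centred near 10 THz for 12 h, with pulses of 35 fs at 1 kHz and an average power density of 1 mW/cm2, and control cultures stood beside them without irradiation. Both groups were kept at 26 to 27 °C, and both had been given rosiglitazone at 1 µM, insulin at 5 µg/ml, IBMX at 100 µM and dexamethasone at 1 µM, a mixture that drives fat cell formation, 48 h before irradiation. There were 3 independent experiments, each with 1 irradiated array and 1 control array. The cells of 1 supplier and the low temperature are shared by all 6 cultures.

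The deposited values are log2 signals, and every difference below is irradiated minus control on the log2 scale. It comes from a limma fit over all 45037 probe sets with the experiment as a block, with its standard error and two-sided p. Array medians lay between 4.74 and 4.80. Of 9 stromal markers measured 8 were expressed, Thy1 being dim at 4.07, and all 5 fat cell markers measured were expressed. All 7 macrophage markers measured, among them Csf1r and Adgre1, were also expressed, with the lowest group mean at 9.81, so the cultures were not stromal cells alone. The 5 endothelial markers were all dim. Of 4 epithelial markers 1 was expressed. Spiked-in hybridisation controls differed by 0.08, -0.03 and 0.50, irradiated minus control, in experiments 1, 2 and 3.

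No DnaJ gene passed the adjusted threshold of 0.05 after irradiation, and as a family they lay as often above as below their controls. Of the 42 genes, 22 were higher and 20 lower in irradiated cultures, with a median difference of 0.01 against 0.01 over all 18193 genes. At an adjusted p under 0.05, 0 of 42 DnaJ genes and 0% of all genes passed. At an unadjusted p under 0.05 there were 4, or 9.52% of the family, against 8.31% of all genes. These 4 were Dnajc12 and the dim Dnajc28, lower in irradiated cultures, and Dnajb4 and Dnajc30, higher in irradiated cultures. Among expressed genes the count was 3 of 32, or 9.38%, against 10.8% of all expressed genes. The family's share over all 3 experiments is therefore near the background. With 1 experiment left out the share was 4.76% against 3.63% of all genes without experiment 1, 11.9% against 5.47% without experiment 2 and 4.76% against 8.51% without experiment 3, with 2, 5 and 2 DnaJ genes. By class, all 4 class A genes were lower, with a median of -0.08, 9 of 12 class B genes were higher, with a median of 0.08, and class C was split 13 to 13. Of all 18193 genes 9461 were higher. Counting every probe set, lower to higher, Dnaja1 had 3 to 0, Dnaja3 2 to 1, Dnaja2 2 to 2 and Dnaja4 1 to 2. Of the higher class B genes, Dnajb3, Dnajb7 and Dnajb8 were dim. The split by class was not tested. In such bulk RNA fewer cells of a type and less RNA per cell cannot be told apart.

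No DnaJ gene differed by 1.5-fold or more, and only 88 of all 18193 genes did. The differences ran from -0.46 for Dnajc12 to 0.34 for Dnajc30. Within 0.15 of 0 lay 29 of 42, a share near that of all genes, 12499 of 18193. The difference had the same sign in all 3 experiments for 17 genes, 8 lower and 9 higher, or 40.5% of the family against 30.8% of all genes. All 3 irradiated arrays lay outside the range of the 3 controls for 7 genes, or 16.7% against 9.96% of all genes. Those were Dnajc12, Dnajc28 and Dnaja2, lower, and Dnajc30, Dnajc4, Dnajb5 and Dnajc8, higher in irradiated cultures. Among expressed genes both backgrounds were higher. For 1 sign the shares were 43.8% of expressed DnaJ genes against 37.3% of all expressed genes. Without overlap they were 18.8% against 12.5%.

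**Figure D1:**
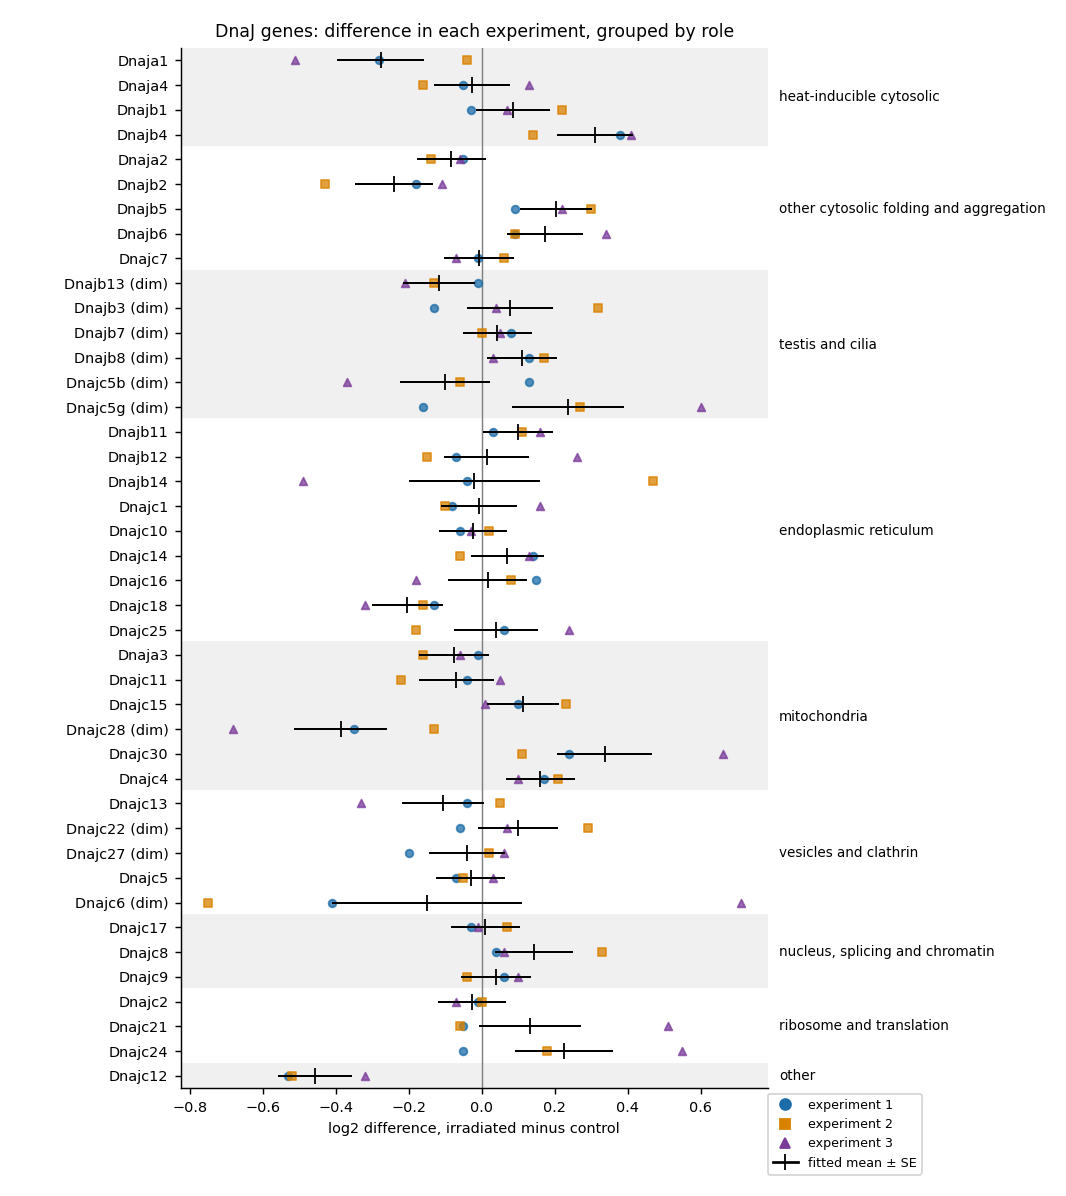
Log2 difference, irradiated minus control (horizontal axis), for each of the 42 DnaJ genes (rows, grouped by role). Coloured symbols are the 3 experiments, and black ticks with bars are the fitted mean ± SE; dim genes are marked. The means lie between -0.46 for Dnajc12 and 0.34 for Dnajc30, on both sides of 0 in most groups.

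Promoter sequences were searched for the letters of the heat shock element, since heat shock factor binds inverted repeats of GAA. RefSeq windows of assembly GRCm38.p6, 300 bases around a transcript start with the last 50 of them downstream, were found for 33 of the 42 genes, 46 windows in all. The full element was searched on both strands as 3 alternating inverted GAA units set 2 bases apart, and its shorter form as 2 units, GAANNTTC or TTCNNGAA. The longer form contains the shorter. The longer form was in 0.603% of all 32851 windows and in 2 of the 46 DnaJ windows, or 4.35%, both of Dnajb6. Those 2 windows overlap and hold the same element. By gene this is 1 of 33, or 3.03%, against 0.662% of all genes. The shorter form was in 15.2% of DnaJ windows and 15.1% of all windows. It was found for 6 DnaJ genes, Dnaja1, Dnaja4, Dnajb4, Dnajb6, Dnajc10 and Dnajc27, and not in the windows of Dnajb1. Of the genes with a match, stretches are shown for Dnaja1, Dnaja4, Dnajb4 and Dnajb6, and not for Dnajc10 and Dnajc27. A match describes letters and is not a measured binding site. Only exact letters were searched, so a variant element would be missed, also in Dnajb1. In the stretches below, read 5′ to 3′ on the strand of the gene, capitals mark the element.

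Dnaja1, chr4:40722314-40722381, plus strand: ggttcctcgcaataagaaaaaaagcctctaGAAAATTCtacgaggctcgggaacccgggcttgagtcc

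Dnaja4, chr9:54699439-54699544, plus strand: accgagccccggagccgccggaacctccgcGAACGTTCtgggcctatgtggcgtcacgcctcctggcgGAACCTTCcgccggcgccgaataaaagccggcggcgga

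Dnajb4, chr3:152193846-152193889, minus strand: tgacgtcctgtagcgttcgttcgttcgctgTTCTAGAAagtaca

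Dnajb6, chr5:29735822-29735894, plus strand: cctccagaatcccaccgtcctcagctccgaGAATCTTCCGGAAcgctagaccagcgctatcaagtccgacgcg

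The elements start 124 bases before the transcript start for Dnaja1, 90 for Dnaja4, 14 for Dnajb4 at the downstream of its 2 listed starts, and 46 for Dnajb6 at the upstream of its 2 starts. As the values below show, the 4 genes with a stretch printed here did not share a direction.

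The 4 heat-inducible cytosolic members went different ways. Dnaja1, a farnesylated class A partner of the cytosolic Hsp70s, read 11.39, 11.72 and 11.39 in irradiated cultures of experiments 1, 2 and 3, against 11.67, 11.76 and 11.90 in controls. Each irradiated value lay below its own control, but that of experiment 2 lay within the control range. The difference was -0.28 ± 0.12 (SE, n = 3 pairs; limma adjusted p = 0.622), and -0.16 without experiment 3. The other probe sets of Dnaja1, both bright, differed by -0.35 ± 0.13 (SE) and -0.03 ± 0.10 (SE).

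Dnajb4, a class B member also known as HLJ1, read 10.70, 10.28 and 10.45 in irradiated cultures and 10.32, 10.14 and 10.04 in controls. Each irradiated value lay above its own control, and the groups overlapped through the irradiated array of experiment 2. The difference was 0.31 ± 0.10 (SE, n = 3 pairs; limma adjusted p = 0.575). Its other probe sets were also higher, by 0.15 ± 0.10 (SE) and, for the dim one, 0.12 ± 0.10 (SE).

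Dnajb1, the major heat-inducible Hsp40, read 10.62, 10.60 and 10.51 in irradiated cultures and 10.65, 10.38 and 10.44 in controls. The groups overlapped, with a difference of 0.09 ± 0.10 (SE; 95% interval -0.16 to 0.33), and 0.02 ± 0.13 (SE) on the other probe set. Dnaja4, a class A member, read 7.04, 6.56 and 6.72 in irradiated cultures and 7.09, 6.72 and 6.59 in controls. It differed by -0.03 ± 0.10 (SE; 95% interval -0.28 to 0.22), with the experiments on both sides of 0, and its sign turned when all 3 of its probe sets were averaged. The median of the 4 genes was 0.03.

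**Figure D2:**
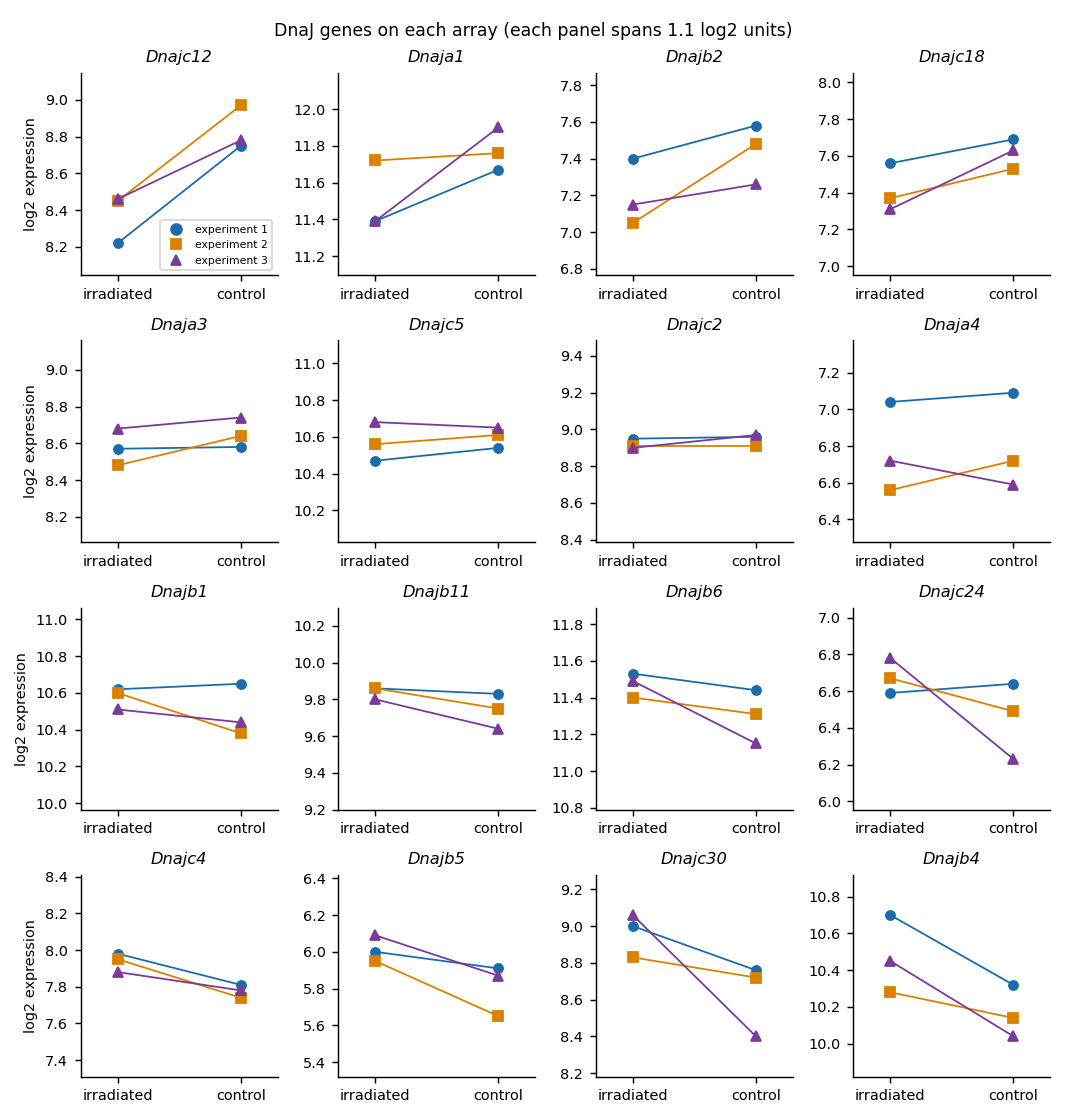
Log2 expression (vertical axis, 1.1 log2 units in every panel) of 16 DnaJ genes on each array, irradiated on the left and control on the right, with a line joining the cultures of 1 experiment. All 3 lines slope upward from left to right for Dnajc12, Dnaja1, Dnajb2 and Dnajc18, lower in irradiated cultures, and, by less, for Dnaja3; all 3 slope downward from left to right for Dnajb4, Dnajc30, Dnajb5, Dnajc4, Dnajb6 and Dnajb11, higher in irradiated cultures.

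The inducible Hsp70 genes, whose products these cochaperones serve, had wider differences in the same arrays. Hspa1b read 10.23, 10.68 and 9.34 in irradiated cultures and 11.34, 11.38 and 11.51 in controls, without overlap. All 23 listed Hsp70 partners and nucleotide exchange factors were measured and expressed. None passed at an adjusted p under 0.05. At an unadjusted p under 0.05 there were 6, or 26.1%, all lower in irradiated cultures, against 10.8% of expressed genes. The family of 32 expressed DnaJ genes had 1 lower and 2 higher at that level. The partner list was drawn up with earlier results of these data known, so its share is no independent support. Hspa1a and Hspa1b, counted as 2 of the 6, also moved in parallel, and whether their probe sets read separate transcripts was not tested. Their differences in experiments 1, 2 and 3 were -1.30, -0.74 and -2.38 for Hspa1a and -1.11, -0.70 and -2.17 for Hspa1b.

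Those 6 were Hspa1a, Hspa1b, Hspa4l, Hsph1, Hspa2 at -0.32 ± 0.09 (SE) and Stip1 at -0.24 ± 0.10 (SE). Stip1 encodes the adaptor that passes clients between Hsp70 and Hsp90. The other 17 partners lay between -0.16 and 0.21. Hspa8, the constitutive cytosolic Hsp70, differed by 0.02, the mitochondrial Hspa9 by 0.09 and the endoplasmic reticulum Hspa5 by -0.06. Stub1, a ubiquitin ligase that binds Hsp70, differed by -0.13 and the exchange factor gene Sil1 by 0.20. The groups did not overlap for 9 of the 23 partners, or 39.1% against 12.5% of all expressed genes. These were the same 6 genes, lower, and Sil1, Bag5 at 0.18 and St13 at 0.12, higher in irradiated cultures. That share is no independent support either. The median was -0.06 over the 23 genes and 0.01 over the 32 DnaJ genes, a difference that was not tested. The heat shock factor gene Hsf2 differed by -0.26 ± 0.12 (SE), with 0, -0.52 and -0.26 in the 3 experiments. Of 4 J domain genes with other symbols 3 were measured, and none was under 0.05 unadjusted. Sec63, of the translocation channel, differed by -0.17, the clathrin-uncoating kinase gene Gak by 0.00 and Hscb, of iron-sulphur cluster assembly, by 0.21 ± 0.09 (SE).

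**Figure D3:**
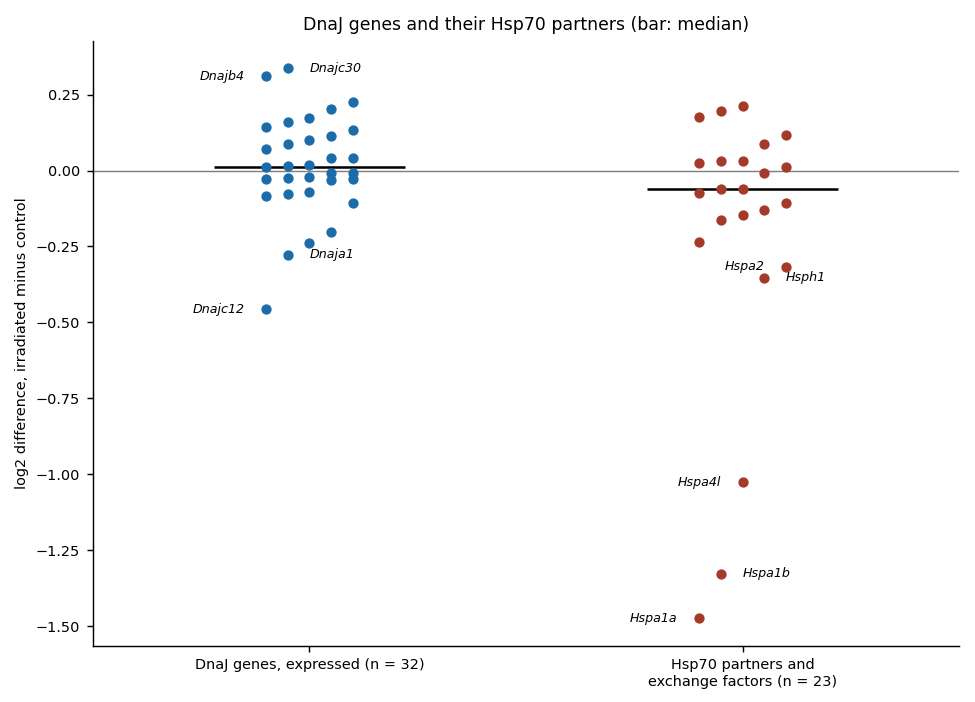
Log2 difference, irradiated minus control (vertical axis), for the 32 expressed DnaJ genes and the 23 Hsp70 partners and exchange factors, each point a gene and each bar the median. The DnaJ genes lie between -0.46 and 0.34, while Hspa1a, Hspa1b and Hspa4l lie at -1.47, -1.33 and -1.03.

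The other cytosolic members, which fold clients or hold back aggregates, were likewise divided. Dnajb2, which carries ubiquitin-binding motifs and is best known in neurons, read 7.4, 7.05 and 7.15 in irradiated cultures and 7.58, 7.48 and 7.26 in controls. It was lower in each pair, with overlapping groups, and differed by -0.24 ± 0.11 (SE; limma adjusted p = 0.633), and by -0.145 without experiment 2. Dnajb6, a suppressor of protein aggregation, read 11.53, 11.40 and 11.49 in irradiated cultures and 11.44, 11.31 and 11.15 in controls. It was higher in each pair, by 0.17 ± 0.10 (SE), and by 0.09 without experiment 3.

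The probe sets of Dnajb6 disagreed. A second bright one differed by 0.20 ± 0.16 (SE), while the third bright one differed by -0.12 ± 0.10 (SE) and the dim one by -0.16 ± 0.10 (SE). Dnajb5 lay at the edge of detection, reading 6.0, 5.95 and 6.09 in irradiated cultures and 5.91, 5.65 and 5.87 in controls. The groups did not overlap and the difference was 0.20 ± 0.10 (SE). Its other probe sets, both dim, differed by -0.17 and -0.05, and the mean over its 3 probe sets was -0.01.

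Dnaja2, a constitutive class A member, read 11.48, 11.46 and 11.44 in irradiated cultures and 11.53, 11.60 and 11.50 in controls. The groups did not overlap, yet the difference was -0.08 ± 0.09 (SE). Its other bright probe sets gave 0.21 and -0.04. Dnajc7, which carries tetratricopeptide repeats and binds both Hsp70 and Hsp90, differed by -0.01 (95% interval -0.23 to 0.22).

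Among 9 members of the endoplasmic reticulum, 8 differed by less than 0.15. Dnajb11, a luminal partner of BiP that helps fold secreted proteins, read 9.86, 9.86 and 9.80 in irradiated cultures and 9.83, 9.75 and 9.64 in controls. It was higher in each pair by 0.10 ± 0.10 (SE; 95% interval -0.13 to 0.33). Dnajc10, a disulphide reductase of the lumen, differed by -0.02 and its other probe sets by 0.04 and 0.00. The membrane-anchored Dnajb12 differed by 0.01 and Dnajb14 by -0.02.

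Dnajb14 was among the least stable, with differences of -0.04, 0.47 and -0.49 in the 3 experiments. Dnajc1, Dnajc14, Dnajc16 and Dnajc25 lay between -0.01 and 0.07. Dnajc18 was the exception, reading 7.56, 7.37 and 7.31 in irradiated cultures and 7.69, 7.53 and 7.63 in controls. It was lower in each pair, by -0.20 ± 0.10 (SE), but its second bright probe set differed by 0.07 ± 0.10 (SE). The J proteins left out of the family also lay near 0, Dnajb9 at 0.02 ± 0.13 (SE) and Dnajc3 at -0.03 ± 0.10 (SE).

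The mitochondrial members held both a higher and a lower gene at unadjusted p under 0.05. Dnajc30, a protein of the inner membrane linked to ATP synthase and to the upkeep of complex I, read 9.0, 8.83 and 9.06 in irradiated cultures and 8.76, 8.72 and 8.40 in controls. The groups did not overlap. The difference was 0.34 ± 0.13 (SE, n = 3 pairs; limma adjusted p = 0.6), of which experiment 3 gave 0.66, and it was 0.18 without that experiment.

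Dnajc28 read 4.32, 4.59 and 4.41 in irradiated cultures and 4.67, 4.72 and 5.09 in controls, without overlap, and differed by -0.39 ± 0.13 (SE; limma adjusted p = 0.574). Both groups are dim there, and its other probe set differed the other way, by 0.28 ± 0.12 (SE). Dnajc4, grouped here with the mitochondria, read 7.98, 7.95 and 7.88 in irradiated cultures and 7.81, 7.74 and 7.78 in controls. The groups did not overlap and the difference was 0.16 ± 0.09 (SE), with 0.17, 0.21 and 0.10 in the 3 experiments.

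Dnaja3, the class A member of the mitochondrial matrix, read 8.57, 8.48 and 8.68 in irradiated cultures and 8.58, 8.64 and 8.74 in controls. It was lower in each pair, by -0.08 ± 0.10 (SE), and its other bright probe set differed by -0.24 ± 0.12 (SE). Dnajc15, a relative of the import motor's J protein, differed by 0.11 ± 0.10 (SE). Dnajc11, which is found with the complex that shapes cristae, differed by -0.07, and by -0.30 ± 0.12 (SE) on its other bright probe set.

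Members of the vesicle group showed no shared direction. Dnajc5, the cysteine string protein of secretory vesicles, read 10.47, 10.56 and 10.68 in irradiated cultures and 10.54, 10.61 and 10.65 in controls. The groups overlapped, with a difference of -0.03 ± 0.09 (SE; 95% interval -0.26 to 0.20). Its other 4 probe sets ran from -0.31 ± 0.12 (SE) to 0.09 ± 0.09 (SE). Dnajc13, which acts on endosomes, differed by -0.11 ± 0.11 (SE), with -0.33 in experiment 3 alone. Dnajc6, the neuronal auxilin that uncoats clathrin vesicles, was dim and differed by -0.41, -0.75 and 0.71 in the 3 experiments. Dnajc22 and Dnajc27 were dim, at 0.10 and -0.04.

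Nuclear and ribosomal members lay between -0.03 and 0.23. Dnajc8, a spliceosome-associated protein, read 10.72, 10.87 and 10.76 in irradiated cultures and 10.68, 10.54 and 10.70 in controls. The groups did not overlap, by a margin of the second decimal, and the difference was 0.14 ± 0.11 (SE), with 0.22 ± 0.11 (SE) on its other probe set. Most of it came from experiment 2, with 0.04, 0.33 and 0.06 in the 3 experiments. Dnajc17, a nuclear member with an RNA recognition motif, differed by 0.01 on its brightest probe set, with group means of 9.56 and 9.55. Its other probe sets were dim, with group means between 3.83 and 4.14, and differed by 0.13 and -0.18. The probe sets thus disagree on whether Dnajc17 was expressed. Dnajc9, a histone chaperone, differed by 0.04.

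Dnajc2, which sits on the ribosome where new chains emerge, was among the steadiest genes of the family on its brightest probe set. It read 8.95, 8.91 and 8.90 in irradiated cultures and 8.96, 8.91 and 8.97 in controls, a difference of -0.03 ± 0.09 (SE; 95% interval -0.25 to 0.20). The second bright probe set of Dnajc2 varied more between experiments. That set read 7.98, 7.89 and 7.43 in irradiated cultures and 7.94, 8.04 and 7.44 in controls, and differed by -0.04 ± 0.10 (SE). The dim ones differed by 0.03 ± 0.19 (SE) and 0.19 ± 0.16 (SE). Dnajc24, needed for the diphthamide modification of elongation factor 2, read 6.59, 6.67 and 6.78 in irradiated cultures and 6.64, 6.49 and 6.23 in controls. The groups overlapped and the difference of 0.23 ± 0.13 (SE) became 0.07 without experiment 3. Dnajc21, a ribosome assembly factor, differed by 0.13 ± 0.14 (SE), with 0.51 in experiment 3 and -0.05 and -0.06 in the others.

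Dnajc12, which binds aromatic amino acid hydroxylases, had the widest difference of the family. It read 8.22, 8.45 and 8.46 in irradiated cultures and 8.75, 8.97 and 8.78 in controls, so that every irradiated array lay below every control. The difference was -0.46 ± 0.10 (SE, n = 3 pairs; 95% interval -0.70 to -0.22), or 1.37-fold lower, with -0.53, -0.52 and -0.32 in the 3 experiments (limma adjusted p = 0.53). It stayed between -0.53 and -0.42 when any experiment was left out. The array has 1 probe set for it, so no second reading was at hand.

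The macrophage markers had a median difference of -0.10, with all 7 group means lower in irradiated cultures, but none passed at an adjusted p under 0.05 and 1, Cd14 at -0.73, was under 0.05 unadjusted. Their median was -0.25, 0.08 and -0.12 in experiments 1, 2 and 3, 3 of 7 had 1 sign in all of them, and no marker's groups were without overlap. Their summed signal on the log2 scale was 14.4, 15.07 and 15.07 in irradiated cultures and 14.66, 15.09 and 15.34 in controls. Its part in the differences of the DnaJ genes was not tested.

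The 6 members known chiefly from testis or cilia, Dnajb3, Dnajb7, Dnajb8, Dnajb13, Dnajc5b and Dnajc5g, were all dim. Their group means lay between 2.40 for Dnajb7 and 5.37 for Dnajb8, and their differences between -0.12 and 0.24. At such signals a difference cannot be read with confidence.

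**Figure D4:**
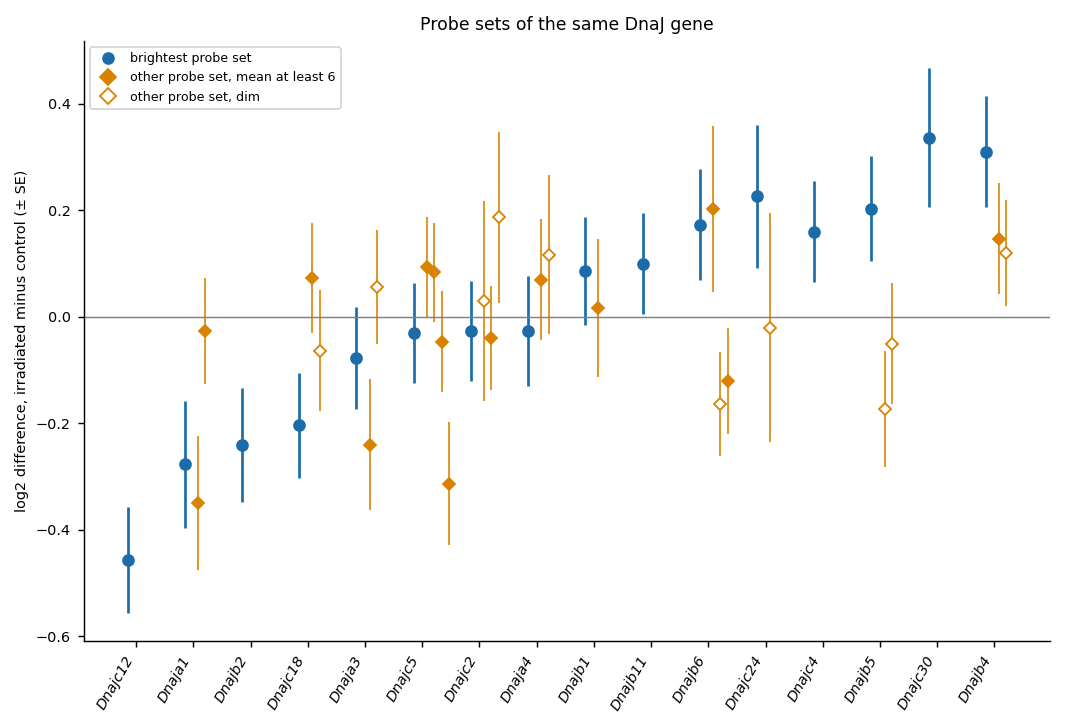
Log2 difference, irradiated minus control, with its SE (vertical axis), for every probe set of 16 DnaJ genes: the brightest as blue circles, the others as orange diamonds, open where dim. All 3 probe sets lie below 0 for Dnaja1 and above 0 for Dnajb4, whereas those of Dnajb6 and Dnajc5 lie on both sides.

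Across the family 27 genes had several probe sets, 98 probe sets for the 42 genes, and 18 had more than 1 that was bright. In 10 of these 18 all bright probe sets had 1 sign, and in 8 they had both. Of the genes with the largest statistics, Dnaja1 and Dnajb4 had 1 sign throughout, whereas Dnajc12, Dnajc30, Dnajb2 and Dnajc4 had 1 probe set each. Dnajc18, Dnajb5, Dnajb6 and Dnajc24 had both signs among theirs, the dim second one of Dnajc24 being at -0.02. Probe sets whose names end in _s_at, such as the brightest of Dnaja2, Dnajb5, Dnajc2, Dnajc10 and Dnajc24, may take up transcripts of more than 1 gene.

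Levels also varied between the experiments. The range of the 3 pair means, each the average of an irradiated culture and its control, exceeded the size of the irradiation difference in 29 of 42 genes, or 69% against 79.9% of all genes. A range over 3 means tends to exceed a single mean difference, so nothing is read from this share. Dnajc1, a transmembrane protein that binds ribosomes, had pair means of 9.0, 8.73 and 8.33 in experiments 1, 2 and 3 and an irradiation difference of -0.01. Dnajc9 had pair means of 8.62, 8.43 and 8.05 and a difference of 0.04. For both genes the irradiated and the control array of an experiment lay closer together than the experiments did. Dnaja4 was highest in experiment 1, with pair means of 7.07, 6.64 and 6.66.

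**Figure D5:**
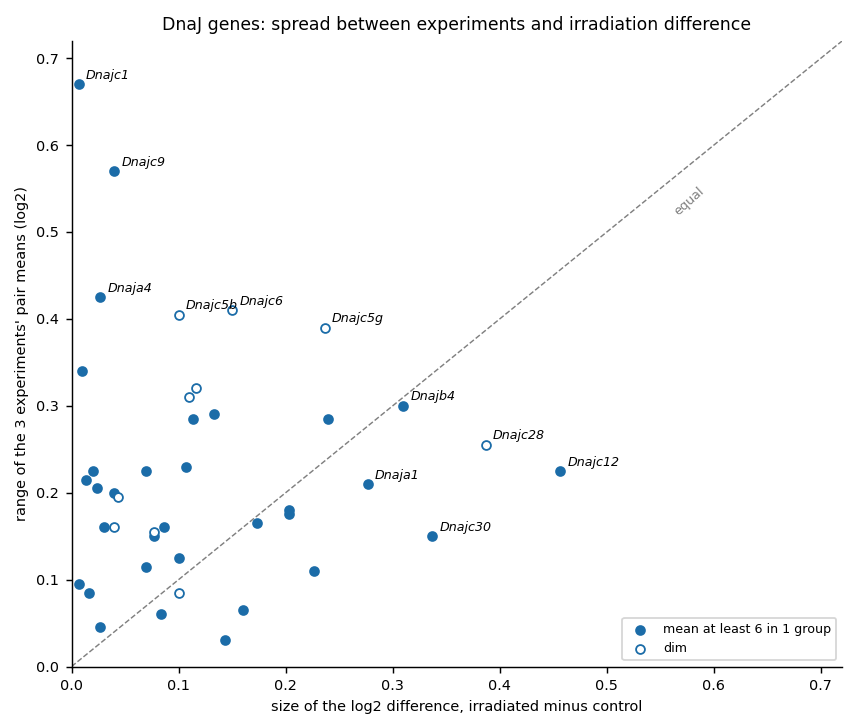
Range of the 3 experiments' pair means (vertical axis, log2) against the size of the irradiation difference (horizontal axis, log2) for the 42 DnaJ genes, open where dim; the dashed line marks equality. Dnajc1 and Dnajc9 lie far above the line at 0.67 and 0.57, and Dnajc12 and Dnajc30 lie below it.

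The responses of the 32 expressed members matched between experiments unevenly. Across these genes, which share arrays and are not replicates, the differences of experiment 1 correlated at 0.57 (Pearson) with those of experiment 2 and at 0.55 with those of experiment 3, and experiments 2 and 3 gave 0.14. Over all 42 members the values in that order were 0.53, 0.27 and 0.02. Over all 9302 expressed genes the values in that order were 0.52, 0.31 and 0.07. The SD of the members' differences was 0.16, 0.21 and 0.28 in experiments 1, 2 and 3, and that of all expressed genes 0.20, 0.23 and 0.32.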

How the data were processed

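Expression was measured on 6 arrays, 3 irradiated and 3 control. The deposited values are log2 signals per probe set to 2 decimals, made by the authors with RMA and the affy package, with limma also named, per the submitters' processing notes, without versions in the sources used here. Of 45101 probe sets 64 array controls were left out. Genes were named from the platform annotation, using probe sets with 1 symbol.

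The fit used limma 3.58.1 in R 4.3.3 (lmFit, eBayes, Benjamini-Hochberg over all 45037 probe sets), with the experiment as a block, since the design text pairs each irradiated culture with its own control. Deviations from the group means correlated at 0.787, 0.028 and 0.324 in the 3 pairs. Across experiments they ran from -0.67 to 0.552. The highest was for the irradiated array of experiment 2 with the control of experiment 3, above that of its own pair. The pairing of experiment 2 therefore rests on the design text alone. Residual and prior degrees of freedom were 2 and 4.52. The fit was tested on simulated data without differences between experiments. It called 80 of 100 probe sets changed 2-fold, 98 of 100 changed 4-fold and 14 of 44837 unchanged ones. Every DnaJ difference was smaller than those changes, so the test does not show how often such a difference would be found. The 12 alternatives left out or randomised the block, left out each experiment, renormalised, weighted arrays, changed the prior, left out dim probe sets, or averaged or preselected a gene's probe sets.

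Members and lists were chosen with earlier results of these data known. The 16 genes described in full were the 10 expressed members with the largest statistic and 8 fixed ones, partly the same. Role groups and Hsp70 partners were listed from general knowledge. Figures used matplotlib 3.10.9 in Python 3.11.15.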

Additional observations from a re-analysis of the deposited data

How the results depend on the processing

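None of 12 alternatives gave a DnaJ gene an adjusted p under 0.05, and the number at an unadjusted p under 0.05 ran from 2 to 6. The share of all 18193 genes at that level ran from 3.63% to 10.8%. With dim probe sets left out the share was 13.5% of 9302 genes. The 6, with an intensity trend and robust prior, were 14.3% against 9.87%. With each experiment left out the number of DnaJ genes was 2 to 5. It was 2 (4.76% against 3.63%) without experiment 1, 5 (11.9% against 5.47%) without experiment 2 and 2 (4.76% against 8.51%) without experiment 3. Without the replicate block it was 3, against 4 with it, and 4.85% of all genes against 8.31%; the block changed no adjusted call of a DnaJ gene. Among the genes described in full, Dnajc12 was under 0.05 unadjusted in all 12, Dnajc30 in 10 and Dnajb4 in 8. The dim Dnajc28 is not among those genes. The alternatives refit the same arrays, and these genes were picked for their large statistics, so the counts are no independent support. The family median stayed within the spread between experiments (SD 0.0425). Of 192 values for the 16 genes described in full, 4 changed sign. They were Dnaja4, at -0.105 to 0.04 with each experiment left out and at 0.0533 as the mean of all its probe sets, and by that same mean Dnajb5 at -0.00667 and Dnajc2 at 0.0375. The cause was not tested. Low signal over background limits the 10 dim members.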
